A study of Homo sapiens with 91 samples.

Results

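The measurements described here are the 8 RNA libraries of RH4 cells collected at 4 h, 4 treated with KB-0742 and 4 with DMSO as vehicle, out of 91 libraries in the series. They were taken by line, compound and time from the sample labels. RH4 is a human rhabdomyosarcoma line that carries the PAX3-FOXO1 fusion, and KB-0742 is a small-molecule inhibitor of the kinase CDK9. All 8 libraries came from 1 line, neither group carried another treatment in the labels, and the labels gave no dose. The replicates were labelled biological without saying whether they came from separate cultures, so p-values measure only the spread between these libraries. The study also treated the leukemia line MOLT4 and the pancreatic line PSN1, collected RH4 at 8 h, and used KI-CDK9d-32, which degrades CDK9; its design text writes RH1 where every label says RH4. Those groups enter below only where the 4 h response of RH4 to KB-0742 was compared with them.

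CDK9 pairs with cyclin T1 or T2 as P-TEFb, the kinase that releases RNA polymerase II from its pause near the start of genes. Most P-TEFb in a cell is held inactive by HEXIM1, LARP7 and MEPCE on the small nuclear RNA RN7SK, and the active form works within the super elongation complex. Rhabdomyosarcoma cells resemble arrested muscle precursors: MYOD1 and MYOG are the muscle-determining factors that pathologists use to recognise the tumor, and the PAX3-FOXO1 fusion protein is known to drive FGFR4, MYOD1 and other genes of this program.

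The DMSO libraries held between 1670111 and 2768330 gene counts and the KB-0742 libraries between 2376861 and 2584485. Markers matched the label of the line. All 18 rhabdomyosarcoma markers were detected, with a summed level of 1646 to 1979 TPM (transcript share of a library in the authors' deposited log2 table, taken out of the log) with DMSO and 1434 to 1754 with KB-0742. Of 20 T-lineage markers 12 were at 0 in all 8 libraries, CD3D, CD3E, CD2 and CD5 among them, and the list summed to between 0.235 and 3.33 TPM with DMSO and between 0.174 and 1.34 with KB-0742. Of 20 epithelial and pancreatic carcinoma markers 7 were at 0, CDH1 among them, and the sum, of which most was KRT17, lay between 10.4 and 68.2 TPM with DMSO and between 15.1 and 61.1 with KB-0742.

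Levels are given as CPM, counts scaled to library size by TMM, which compare a gene with the other genes of the same library. TMM sets the trimmed mean of the gene changes near 0, so a CPM is not a plain share of a library's counts. MYC, for example, had 355 counts over the DMSO and 274 over the KB-0742 libraries, and stood at 30 and 32.6 CPM. Mean depths were 2444913 and 2476752 gene counts. Changes are log2 fold changes of KB-0742 over DMSO ± standard error, and a gene is called where the Benjamini-Hochberg adjusted p of the edgeR quasi-likelihood test lies below 0.05. Of 12058 genes tested, 3814 were called (31.6%), 1856 higher (15.4%) and 1958 lower (16.2%). Lower calls were larger: 1241 genes fell at least 2-fold and 350 at least 4-fold, while 393 rose at least 2-fold and 103 at least 4-fold. Genes with low counts can be called only at large changes. Of those under 10 CPM in the 8 h DMSO libraries 12.1% were called lower and 5.96% higher, and the part of level in the sizes was not tested. In 3068 of the called genes (80.4%) the 4 KB-0742 libraries lay entirely above or below the 4 DMSO libraries, and among all genes tested 14.2% lay above and 15.7% below. The spike-in RNA added to each lysate took 19.2%, 12.7%, 9.87% and 12% of counts in KB-0742 replicates 1 to 4 and 12.2%, 10.0%, 7.51% and 8.85% in DMSO. KB-0742 lay above the same-numbered DMSO library in all 4 cases. The difference did not pass an unpaired test, which leaves the replicate number aside (two-sided exact permutation p = 0.143, where 4 against 4 libraries can reach 0.0286). When libraries were scaled to the spike-ins instead, the median change of all genes moved from -0.07 to -1.12, and 7519 genes (62.4%) were called, 61 higher (0.506%) and 7458 lower (61.9%). Words such as rose and higher therefore stand for levels relative to the other genes, and the spike-in value is given beside values above 0 whose sign it changed. Fewer cells in a lysate and less RNA per cell cannot be told apart in these data.

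HEXIM1, the inhibitor of P-TEFb, fell, and CCNT1, the cyclin T1 partner of CDK9, rose. HEXIM1 stood at 14.5, 7.65, 6.55 and 10.4 CPM in the DMSO libraries and at 0.489, 2.64, 2.93 and 2.95 with KB-0742. It fell by 2.09 ± 0.47 on the log2 scale (edgeR adjusted p = 0.000642), and the groups did not overlap. CCNT1 stood at 7.38, 12, 10.5 and 8.91 CPM with DMSO and at 25.9, 32.1, 26.8 and 18.7 with KB-0742, a rise of 1.41 ± 0.24 (edgeR adjusted p = 1.74e-05) without overlap. With spike-in scaling the value was 0.35 and was not called (edgeR adjusted p = 0.379). The kinase itself was not called: CDK9 had 5.68, 8.75, 14.7 and 12.9 CPM with DMSO and 21, 8.8, 13.2 and 11.8 with KB-0742 (0.40 ± 0.32, edgeR adjusted p = 0.359, with spike-in scaling -0.79). Cyclin T2 (CCNT2) had 12.9 ± 3.32 CPM (SD, n = 4) against 13.7 ± 3.82 and was not called (0.11 ± 0.26, with spike-in scaling -0.92).

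The promoters of 4 of these genes are printed for what they stand for in these data: HEXIM1 and CCNT1 as opposed arms of P-TEFb control, and NINL and LUC7L3 as well-measured genes that fell. Each is the RefSeq window of 250 bases before to 50 after the gene's start in GRCh38.p14, written 5′ to 3′ on the gene's strand. Capitals mark the only match on either strand, where there is one, to the TATA box word TATAAA, to the E-box of MYC-MAX dimers, CACGTG, or to an E-box used by MYOD1, CAGCTG. The HEXIM1 window, chr17:45148225-45148524 on the plus strand, holds TATAAA at -29 from the RefSeq start, in front of a gene of a single exon. GENCODE release 29 places that gene at chr17:45148502-45152101, with a start that differs from that of RefSeq. The CCNT1 window, chr12:48716658-48716957 on the minus strand, holds the E-box CACGTG at -234 from the RefSeq start. GENCODE release 29 starts CCNT1 at 48716998, outside the window, and by that start the E-box lies within the gene. The NINL window lies at chr20:25585482-25585781 on the minus strand and the LUC7L3 window at chr17:50719353-50719652 on the plus strand, and neither holds any of the 3 words.
HEXIM1: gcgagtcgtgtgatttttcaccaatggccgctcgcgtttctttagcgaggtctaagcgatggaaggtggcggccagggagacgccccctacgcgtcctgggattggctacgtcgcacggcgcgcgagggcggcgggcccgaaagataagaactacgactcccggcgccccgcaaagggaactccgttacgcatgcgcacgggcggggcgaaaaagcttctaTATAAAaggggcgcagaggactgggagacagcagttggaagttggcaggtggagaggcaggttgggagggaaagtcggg
CCNT1: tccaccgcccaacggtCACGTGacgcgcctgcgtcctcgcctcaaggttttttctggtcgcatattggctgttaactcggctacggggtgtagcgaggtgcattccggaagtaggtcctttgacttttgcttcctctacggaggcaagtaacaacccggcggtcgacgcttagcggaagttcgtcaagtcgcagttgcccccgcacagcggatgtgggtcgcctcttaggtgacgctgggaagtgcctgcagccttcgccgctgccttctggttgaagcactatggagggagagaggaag
NINL: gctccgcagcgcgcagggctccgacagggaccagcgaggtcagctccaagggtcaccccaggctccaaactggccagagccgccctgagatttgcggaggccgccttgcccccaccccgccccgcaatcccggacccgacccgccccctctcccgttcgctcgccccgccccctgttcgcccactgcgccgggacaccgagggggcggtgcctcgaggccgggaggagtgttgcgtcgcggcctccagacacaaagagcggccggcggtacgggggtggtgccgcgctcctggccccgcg
LUC7L3: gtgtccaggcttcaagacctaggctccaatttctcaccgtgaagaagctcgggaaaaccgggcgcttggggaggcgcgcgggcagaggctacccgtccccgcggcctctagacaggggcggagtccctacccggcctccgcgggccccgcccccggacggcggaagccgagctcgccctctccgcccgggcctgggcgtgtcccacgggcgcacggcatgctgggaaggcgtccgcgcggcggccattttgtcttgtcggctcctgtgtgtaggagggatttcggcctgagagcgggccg

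Across promoters the words were counted in the same way. TATAAA was in 5.21% of the 8930 tested genes with a RefSeq promoter, in 5.66% of those called higher and in 4.63% of those called lower. CACGTG was in 10.2% of all, 11.8% of higher and 8.87% of lower promoters, and CAGCTG in 16.7%, 14.6% and 18.1%. Among all 27305 RefSeq promoters in the table the shares were 12%, 7.43% and 17.7%. Median GC content was 65.3% over the tested promoters, 64.7% in the higher and 65% in the lower group.

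**Figure D1:**
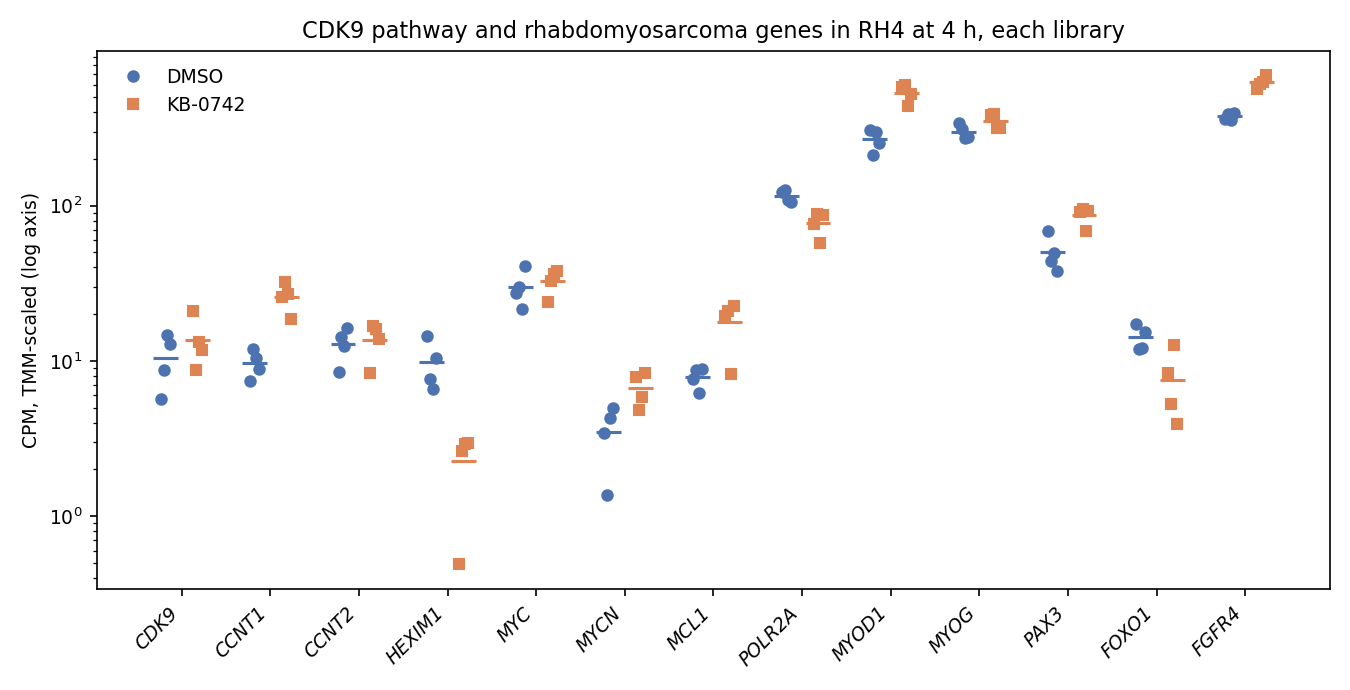
CPM of 13 genes of CDK9 control and of rhabdomyosarcoma (x axis) in each RH4 library at 4 h on a log axis, with circles for the 4 DMSO libraries, squares for the 4 KB-0742 libraries and lines for the means. HEXIM1 lies lower and CCNT1, MYOD1 and FGFR4 higher in all 4 KB-0742 libraries, and CDK9, CCNT2, MYC, MYCN and MYOG overlap.

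Of 13 tested genes for P-TEFb and its regulators, 4 rose and 4 fell, 30.8% each way against 15.4% and 16.2% of all genes (median 0.11, over all genes -0.07, with spike-in scaling -0.92 and -1.12). The lower 4 were HEXIM1, HEXIM2, MEPCE and the phosphatase PPM1A. MEPCE, the capping enzyme of RN7SK, had 15.6, 10.4, 18.3 and 14.4 CPM with DMSO and 0.978, 1.32, 8.78 and 5.9 with KB-0742, a fall of 1.79 ± 0.43 without overlap (edgeR adjusted p = 0.00144). LARP7, the remaining protein of that complex, was not called. The higher genes included CCNT1, the phosphatase gene PPM1G (0.39 ± 0.14) and SRSF2 (0.43 ± 0.16), and the last pair stood at -0.62 and -0.64 with spike-in scaling. In the super elongation complex 1 of 7 tested genes was called, and it was higher, a share of 14.3% near the 15.4% of all genes. This was its scaffold AFF4, which rose from 40, 35.5, 44.2 and 48 CPM to 108, 111, 75.1 and 96.9 (1.23 ± 0.15, edgeR adjusted p = 1.08e-08, with spike-in scaling 0.13).

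Of 16 tested genes of NELF, DSIF, the PAF1 complex and SPT6, which govern pausing and elongation, 3 rose and 2 fell. The shares of 18.8% and 12.5% were near the 15.4% and 16.2% of all genes (median 0.16, with spike-in scaling -0.90). LEO1, of the PAF1 complex, fell from 23.5 ± 7.16 to 9.49 ± 4.32 CPM (-1.31 ± 0.27), and NELFA, of the pausing factor NELF, from 38.7 ± 7.93 to 21.5 ± 2.46 (-0.84 ± 0.18). RTF1, which works beside the PAF1 complex, rose from 35 ± 4.07 to 74.2 ± 5.34 CPM (1.09 ± 0.16, with spike-in scaling 0.05). The DMSO and KB-0742 libraries did not overlap for any of these 3 genes.

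RNA polymerase II subunits were called higher more often than the 15.4% of all genes, with 7 of 12 higher, 1 lower and a median of 0.57 (with spike-in scaling -0.48). The single lower subunit was the catalytic one: POLR2A had 122, 126, 109 and 105 CPM with DMSO and 76.3, 88.9, 57.1 and 86.6 with KB-0742 (-0.59 ± 0.15, edgeR adjusted p = 0.00185). The small subunit gene POLR2E moved the other way, from 272, 253, 279 and 248 CPM to 471, 424, 529.7 and 495, a change of 0.87 ± 0.10 that was -0.17 with spike-in scaling. POLR2F (0.94 ± 0.18) and POLR2L (0.85 ± 0.20) were alike, and with spike-in scaling stood at -0.12 and -0.20. None of the 4 subunit genes had overlapping groups.

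Mediator, the bridge between activators and the polymerase, had 9 of 30 tested genes lower and 3 higher (median -0.21). The shares were 30% and 10%, against 16.2% and 15.4% of all genes. MED31 was among the 10 lowest changes among calls without overlap whose mean log2 CPM reached 3, pseudogenes aside. It stood at 19.6, 16.7, 19 and 21.8 CPM with DMSO and at 2.94, 2.2, 0.975 and 2.46 with KB-0742 (-3.13 ± 0.37, edgeR adjusted p = 1.04e-08). MED10 changed by -1.64 ± 0.30 and MED8 by -1.42 ± 0.24, both without overlap. Of 13 other transcription-linked kinases and cyclins 3 rose and 2 fell, 23.1% and 15.4% against 15.4% and 16.2% of all genes. CDK7, the kinase of TFIIH, fell from 17.6 ± 4.06 to 7.10 ± 1.30 CPM (-1.29 ± 0.28), while cyclin L1 (CCNL1), known to bind CDK11, rose from 37.3 ± 9.84 to 75.2 ± 7.62 (1.02 ± 0.18, with spike-in scaling 0.01). CCNL2 changed by 0.99 ± 0.11, which was -0.06 with spike-in scaling.

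MYOD1 and FGFR4 were higher relative to the other genes, and with spike-in scaling neither was called (edgeR adjusted p = 0.801 and 0.316), at values below 0. MYOD1 had 306, 213, 297 and 254 CPM with DMSO and 580.2, 596, 439 and 521 with KB-0742, a change of 1.00 ± 0.11 (edgeR adjusted p = 3.67e-09) that was -0.07 with spike-in scaling. FGFR4, the receptor tyrosine kinase that marks fusion-positive tumors, had 362, 392, 355 and 394 CPM and then 568, 607, 628 and 692 (0.73 ± 0.09, edgeR adjusted p = 4.49e-08, with spike-in scaling -0.30). Neither gene's groups overlapped. In the authors' deposited TPM, whose total includes the spike-ins, MYOD1 was at 145 ± 19.7 with DMSO and 174 ± 28.6 with KB-0742. FGFR4 was at 122 ± 12.3 and 122 ± 11.7 in the same order (SD, n = 4). The summed gene counts of MYOD1 and FGFR4 rose too, but by less than their CPM, at near-equal mean depths. Part of each CPM change therefore came from the TMM scaling, as for MYC above.

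PAX3, whose reads include those of its part of the fusion, had 68.4, 43.7, 49.8 and 38.1 CPM with DMSO and 90.5, 94.6, 68.3 and 93 with KB-0742, a change of 0.78 ± 0.16 (edgeR adjusted p = 0.000252, with spike-in scaling -0.25). Its groups touched, since DMSO replicate 1 lay just above KB-0742 replicate 3. FOXO1, whose reads include the other part of the fusion, had 17.3, 12, 12.1 and 15.3 CPM and then 8.32, 5.28, 12.7 and 3.94 (-0.91 ± 0.31, edgeR adjusted p = 0.0233). Its groups overlapped, and its call was lost without DMSO replicate 1 (-0.79), KB-0742 replicate 2 (-0.77) or KB-0742 replicate 4 (-0.70). Gene counts cannot separate the fusion transcript from the intact alleles. MYOG was not called, with 339, 312, 272 and 278 CPM against 382, 391, 316 and 314 (0.22 ± 0.11, edgeR adjusted p = 0.135, with spike-in scaling -0.83).

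Of 20 tested regulators of myogenesis and fusion-positive rhabdomyosarcoma 8 rose and 3 fell (median 0.39, with spike-in scaling -0.72). The share of 40% higher stood against 15.4% of all genes, and the 15% lower was near their 16.2%. Those that rose included SOX8, SIX4 and TCF12, at -0.28, -0.22 and -0.37 with spike-in scaling. FOXF1, a forkhead factor, had 10.2 ± 2.90 CPM against 20.5 ± 5.43 (1.00 ± 0.28, with spike-in scaling -0.04). MEF2A, a partner of the myogenic factors, fell by 1.48 ± 0.45 without overlap. EYA1, MEF2C and MEF2D were not called.

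Among 22 tested PAX3-FOXO1 target genes 6 rose and 1, the potassium channel gene KCNN3, fell (median 0.38, with spike-in scaling -0.67). These were 27.3% and 4.55%, against 15.4% and 16.2% of all genes. The 6 were MYOD1, FGFR4, FOXF1, ASS1, IGF1R and IL4R, all below 0 with spike-in scaling. The cytokine receptor gene IL4R changed by 0.91 ± 0.16 (with spike-in scaling -0.13). Of 29 tested genes for muscle structure and excitation 14 rose (48.3%) and 1 fell (3.45%) (median 0.39, with spike-in scaling -0.63). The alkali light chain gene MYL6B (0.89 ± 0.11), the Z-disc gene MYOZ2 (0.80 ± 0.19) and the slow troponin gene TNNI1 (0.77 ± 0.17) were among the 14, at -0.15, -0.26 and -0.31 with spike-in scaling. The exception was CHRNG, the fetal subunit of the muscle acetylcholine receptor, with 43.1, 38.5, 30.8 and 36.6 CPM and then 13.2, 14.5, 17.1 and 9.35 (-1.46 ± 0.21, edgeR adjusted p = 8.75e-07). Other subunit genes of that receptor, CHRNA1, CHRNB1 and CHRND, were called higher, at -0.51, -0.57 and -0.49 with spike-in scaling.

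MYC, the oncogenic transcription factor named in the study's title, was not called. It had 27.5, 29.8, 21.6 and 41.1 CPM with DMSO and 24, 32.6, 36.1 and 37.9 with KB-0742 (0.14 ± 0.24, edgeR adjusted p = 0.701, with spike-in scaling -0.87). MYCN, the paralog that is often active in fusion-positive tumors, stood at 3.41, 1.37, 4.26 and 4.95 CPM and then at 7.83, 4.84, 5.85 and 8.36 (0.97 ± 0.54, edgeR adjusted p = 0.171, with spike-in scaling -0.13), with 1 KB-0742 library inside the DMSO range. Of 12 tested genes of the MYC-MAX network none rose (0 also by DESeq2 and at an unadjusted edgeR p below 0.05), against 15.4% of all genes. The 2 that fell (16.7%, near the 16.2% of all genes) were MXD3 (-0.77 ± 0.21) and MLX (-0.62 ± 0.14), and the median was -0.48. In 45 tested MYC-linked genes of ribosome assembly and nucleotide synthesis 9 rose and 6 fell, shares of 20% and 13.3% against 15.4% and 16.2% of all genes. The nucleolar GTPase gene GNL3 fell most in that list, from 33.2, 50.8, 46.5 and 37.6 CPM to 9.29, 15.8, 11.7 and 15.7 (-1.67 ± 0.22).

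Among genes of the BCL2 and IAP families and their caspases, the calls were higher in the anti-apoptotic and lower in the pro-apoptotic list. Of 7 tested anti-apoptotic genes 4 rose (57.1%, against 15.4% of all genes) and none fell (against 16.2%). Of BIRC5, BIRC6, BCL2L1 and MCL1 only MCL1 stayed above 0 with spike-in scaling (list median 0.41, with spike-in scaling -0.64). MCL1, the short-lived survival protein gene, had 7.66, 8.75, 6.22 and 8.91 CPM with DMSO and 19.6, 21.1, 8.29 and 22.6 with KB-0742 (1.19 ± 0.29, edgeR adjusted p = 0.00151, with spike-in scaling 0.10), with KB-0742 replicate 3 inside the DMSO range. BCL2L1 (0.78 ± 0.28, with spike-in scaling -0.26) lost its call without DMSO replicates 1 or 2 or KB-0742 replicates 2, 3 or 4 (0.68 to 0.78). BIRC6 (0.50 ± 0.19, with spike-in scaling -0.56) lost it without DMSO replicates 2, 3 or 4 or KB-0742 replicates 1, 2 or 4 (0.44 to 0.52). Opposite calls in both lists, anti-apoptotic lower or pro-apoptotic higher, were 0 by edgeR, by DESeq2 and at an unadjusted p below 0.05. In lists of 7 and 12 genes the shares of all genes would give few such calls, so the 0 says little. Of 12 pro-apoptotic genes 3 fell (25%, against 16.2% of all genes). BOK went from 13.8 ± 2.61 to 3.83 ± 0.546 CPM (-1.84 ± 0.39), CASP9 changed by -0.84 ± 0.23 and BAK1 by -0.71 ± 0.22.

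The genes with the highest changes described here kept their sign and their call under spike-in scaling. HELLPAR, a long noncoding RNA of a single exon, rose from 14.2, 11.8, 16.1 and 9.41 CPM to 87.6, 84.9, 65.8 and 78.2 (2.60 ± 0.17, edgeR adjusted p = 8.07e-15, with spike-in scaling 1.54). UBOX5, a ubiquitin ligase gene, rose by 1.99 ± 0.17. Other genes of this group were APCDD1L (2.68 ± 0.43) and its divergent transcript APCDD1L-DT (2.66 ± 0.38), and the antisense genes MPRIP-AS1 (2.74 ± 0.24), TUBA1B-AS1 (2.54 ± 0.50), RPL30-AS1 (2.42 ± 0.35) and PRC1-AS1 (2.21 ± 0.25). The libraries carry no strand information, so reads of an antisense gene and of the gene across from it cannot be told apart.

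Among the genes with the lowest changes, NINL, a centrosomal ninein-like protein gene, was the best measured. It had 28.7, 40.5, 39.3 and 44.6 CPM with DMSO and 4.89, 1.32, 3.9 and 3.44 with KB-0742 (-3.49 ± 0.28, edgeR adjusted p = 1.07e-12). RNPC3, a protein of the minor spliceosome, fell from 24.8 ± 3.09 to 2.86 ± 0.715 CPM (-3.09 ± 0.29), and the histone chaperone gene ASF1A from 13.4 ± 1.41 to 1.43 ± 0.411 (-3.19 ± 0.49). The noncoding LINC00339 (-3.31 ± 0.33), KCTD7 (-3.21 ± 0.55), SFXN5 (-3.17 ± 0.42) and RSKR (-3.11 ± 0.33) fell as far. LIME1 had 153 counts over the DMSO libraries and 2 over the KB-0742 libraries, a ratio of 0.0191 per library size with an exact 95% counting interval of 0.00229 to 0.0701. SERF1B, whose reads are shared with a near-identical copy, was at 5.11, 44, 41.3 and 5.45 CPM with DMSO and between 0 and 3.96 with KB-0742.

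**Figure D2:**
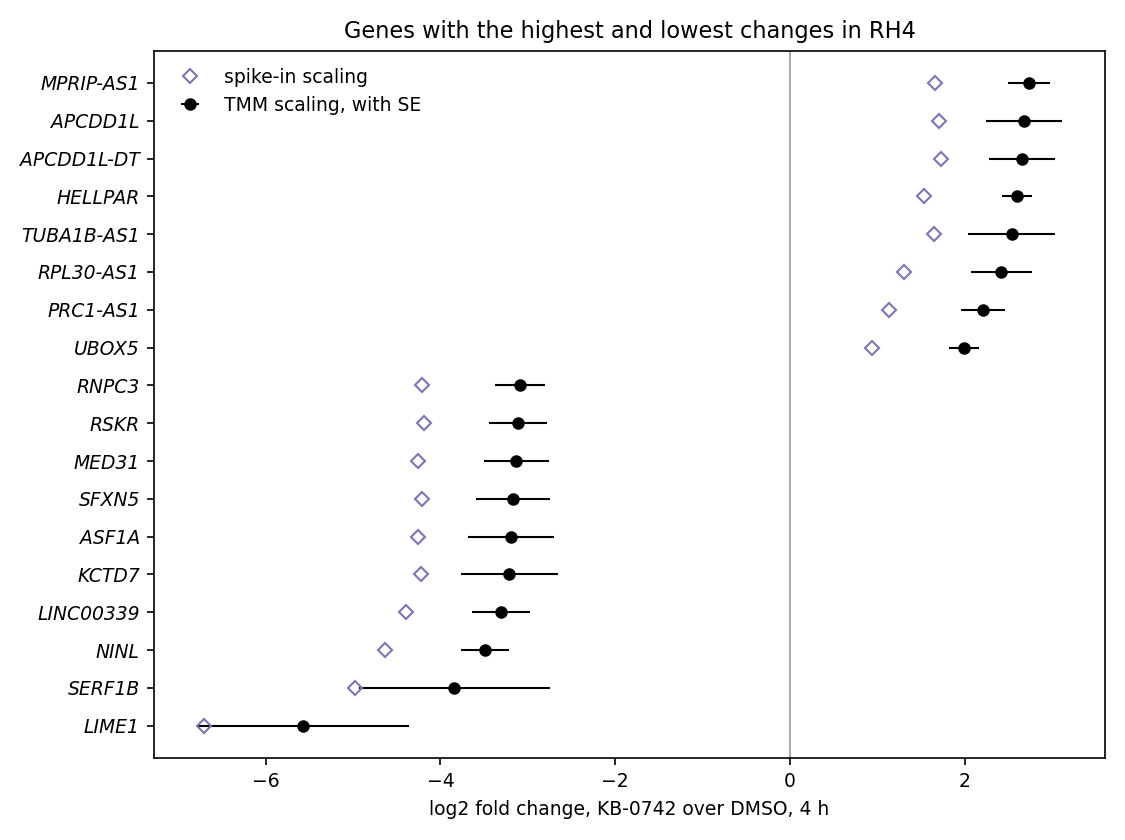
The x axis gives log2 fold changes of KB-0742 over DMSO at 4 h in RH4 for 8 of the 10 highest and for the 10 lowest named genes, with filled circles and standard error bars for TMM scaling and open diamonds for spike-in scaling. Every diamond lies to the left of its circle, and the 8 higher genes stay above 0 on both scales.

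SR proteins, TRA2 factors and their kinases had 6 of 22 tested genes lower and 3 higher (median -0.17). The share of 27.3% lower stood against 16.2% of all genes, and the 13.6% higher was near their 15.4%. SRSF5, an SR splicing factor, fell from 115, 103, 117 and 104 CPM to 21.5, 22, 35.6 and 25.1 (-2.08 ± 0.15, edgeR adjusted p = 9.77e-14). SRSF6, SRSF7, SRSF8 and SRSF10 and the kinase gene SRPK2 were also called lower, SRSF8 (-2.05 ± 0.80) without support once DMSO replicate 4 (-1.82), KB-0742 replicate 1 (-1.66) or KB-0742 replicate 2 (-1.84) was left out. DYRK1A, a kinase of SR proteins, rose by 1.20 ± 0.26 (with spike-in scaling 0.16), and SRSF2 and CLK2 were called higher, at -0.64 and -0.22 with spike-in scaling.

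Core spliceosome genes had 24 of 54 higher (44.4%, against 15.4% of all genes) and 4 lower (7.41%, against 16.2%). Their median was 0.31, with spike-in scaling -0.73. SRRM1, a splicing coactivator gene, stood at 80.9, 60.7, 58.3 and 52.5 CPM and then at 136, 136, 126 and 111 (1.00 ± 0.14, with spike-in scaling -0.02). LUC7L3, a protein associated with U1, was the exception of largest size, from 152, 144, 131 and 137 CPM to 24.5, 22.4, 26.8 and 16.2 (-2.65 ± 0.16, edgeR adjusted p = 6.59e-16). Of 35 tested genes for cleavage, polyadenylation and the Integrator complex 11 fell (31.4%) and 2 rose (5.71%), with a median of -0.16. The termination factor gene PCF11 fell from 9.79 ± 3.17 to 3.09 ± 0.452 CPM (-1.66 ± 0.38) and the polyadenylation gene CPSF4 from 13.1 ± 5.62 to 4.10 ± 1.90 (-1.62 ± 0.38).

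Of the 39 lists, those for recombination, mitosis and replication held the largest shares of lower genes. Of 34 tested homologous recombination and Fanconi genes 16 fell (47.1%, against 16.2% of all genes), 1 rose, and the median was -0.59. The Fanconi ubiquitin ligase gene FANCL fell from 45.7, 35, 31.8 and 31.7 CPM to 7.34, 3.52, 9.75 and 12.3 (-2.14 ± 0.26, edgeR adjusted p = 1.95e-08), and the helicase gene BRIP1 from 10.1 ± 3.73 to 2.36 ± 1.11 (-2.09 ± 0.44). BRCA1, BRCA2, RAD51C, RAD51D and ATM were among the 16, and the checkpoint kinase gene WEE1 was the single higher gene (1.77 ± 0.25, with spike-in scaling 0.71). CHEK1 and PALB2 were not called.

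Of 43 tested G2/M and mitosis genes 17 fell (39.5%, against 16.2% of all genes) and 3 rose (6.98%, against 15.4%), with a median of -0.41. NDC80, of the outer kinetochore, had 53.1, 53.8, 46.8 and 43.1 CPM with DMSO and 7.83, 8.36, 8.78 and 8.36 with KB-0742 (-2.56 ± 0.23, edgeR adjusted p = 2.96e-11). The kinetochore motor gene CENPE (-1.25 ± 0.31) and the spindle checkpoint kinase gene TTK (-1.17 ± 0.34) fell without overlap. Of 49 replication and E2F target genes 18 fell (36.7%) and 8 rose (16.3%, near the 15.4% of all genes), with a median of -0.11. The clamp loader gene RFC4 fell from 49.9, 56.9, 61.9 and 49.5 CPM to 9.78, 8.36, 14.1 and 6.89 (-2.48 ± 0.21), and ORC6, of the origin recognition complex, fell by 2.36 ± 0.27.

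Of 16 tested immediate-early genes 5 rose and 3 fell, 31.2% and 18.8% against 15.4% and 16.2% of all genes (median -0.04). EGR1 rose from 1.99, 2.46, 1.64 and 0.495 CPM to 7.34, 8.36, 17.1 and 14.8 (2.74 ± 0.50, edgeR adjusted p = 3.7e-05) and was also called higher with spike-in scaling (1.83). CCN1, a matricellular protein gene, rose by 1.61 ± 0.29 (with spike-in scaling 0.53), and BTG2, an antiproliferative gene that p53 induces, fell from 14.6 ± 5.08 to 3.68 ± 3.28 CPM (-1.92 ± 0.51). Among 18 tested signal feedback and developmental response genes 4 rose and 3 fell, shares of 22.2% and 16.7% that were near those of all genes. ID3, an inhibitor of basic helix-loop-helix factors such as MYOD1, rose from 278, 219, 242 and 228 CPM to 825, 696, 576 and 743 (1.55 ± 0.11, edgeR adjusted p = 2.43e-14, with spike-in scaling 0.48), while its paralog ID2 was called lower. SPRY2, a feedback inhibitor of receptor tyrosine kinase signaling, rose by 1.76 ± 0.23, and AXIN2, a Wnt target, fell by 2.34 ± 0.66 from a low level of 2.60 ± 0.175 CPM.

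Of 25 tested p53 target genes 6 fell and 1 rose, 24% and 4% against 16.2% and 15.4% of all genes (median -0.48). Among the 6 was the cytokine gene GDF15, which went from 12.8, 19.4, 25.6 and 26.2 CPM to 0.978, 10.1, 3.9 and 5.41 (-2.0 ± 0.39, edgeR adjusted p = 9.48e-05). Of 24 integrated stress response genes 5 fell and 2 rose, 20.8% and 8.33%, with a median of -0.08 beside -0.07 over all genes. Its transcription factor gene ATF4 fell from 175, 164, 167 and 174 CPM to 74.8, 77, 104 and 106 (-0.91 ± 0.12), and DDIT4, an inhibitor of mTOR signaling, fell by 2.20 ± 0.38. Of 28 heat shock and chaperone genes 10 rose and 2 fell, 35.7% and 7.14% (median 0.17, with spike-in scaling -0.91). The 2 lower genes were the constitutive chaperone gene HSPA8, from 1528, 1872, 1347 and 1317 CPM to 745, 897, 725 and 722 (-0.97 ± 0.12), and DNAJB1 (-1.11 ± 0.19), while HSPB1 changed by 0.82 ± 0.12 (with spike-in scaling -0.25).

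In the lists of cytosolic ribosomal proteins and mitochondrially encoded mRNAs every tested gene was called higher, and with spike-in scaling no member of either was called, with medians below 0. All 79 cytosolic ribosomal protein genes were called higher, between 0.63 and 1.02 (median 0.85, with spike-in scaling -0.20). RPL32, a protein of the large subunit, had 2106, 1759, 2227 and 1867 CPM with DMSO and 4126, 3616, 4164 and 4182 with KB-0742 (1.02 ± 0.09, with spike-in scaling -0.04). All 13 mitochondrially encoded mRNAs, which nuclear RNA polymerase II does not transcribe, were called higher (median 0.77, with spike-in scaling -0.28). MT-CO2, a subunit of cytochrome c oxidase, went from 10539, 10612, 11575 and 10443 CPM to 21263, 18033, 20304 and 18123 (0.85 ± 0.09, with spike-in scaling -0.22). None of these lists' members had overlapping groups. Ribosomal protein genes have many processed copies, which can share reads.

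Of 76 tested nuclear respiratory chain subunit genes 60 rose (78.9%) and 1 fell (1.32%) (median 0.58, with spike-in scaling -0.46). Of 35 proteasome subunit genes 21 rose (60%) and 2 fell (5.71%) (median 0.35, with spike-in scaling -0.67). Over all genes 15.4% rose and 16.2% fell. NDUFB11, of complex I, changed by 0.90 ± 0.13 (with spike-in scaling -0.15) and the ATPase gene PSMC3 by 0.67 ± 0.09 (with spike-in scaling -0.37), while PSMC6, of the same ATPase ring, fell from 85.7 ± 10.3 to 50.9 ± 13.9 CPM (-0.75 ± 0.17). Mitochondrial ribosomal protein genes had 16 of 78 higher and 15 lower, 20.5% and 19.2%, and a median equal to that of all genes, -0.07. MRPL46 fell from 43.5 ± 1.38 to 11.6 ± 7.14 CPM (-1.90 ± 0.28). Cytochrome c oxidase assembly genes had 4 of 27 higher and 4 lower, 14.8% each way and near the shares of all genes, and the lower ones included SCO2, a copper chaperone gene, at 17.6 ± 5.34 and then 3.76 ± 2.40 CPM (-2.22 ± 0.39).

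Zinc finger genes named ZNF had 66 of 394 tested genes lower and 34 higher, shares of 16.8% and 8.63% against 16.2% and 15.4% of all genes, with a median of -0.27. Of 24 snoRNA host transcripts 12 rose (50%) and 5 fell (20.8%) (median 0.28, with spike-in scaling -0.74). SNHG17 rose from 95.8 ± 9.71 to 224 ± 18.7 CPM (1.22 ± 0.12, with spike-in scaling 0.17). SNHG12 fell from 65.5 ± 3.07 to 28.3 ± 8.10 CPM (-1.21 ± 0.19). Of 14 nuclear long noncoding RNAs 3 fell and 2 rose, shares of 21.4% and 14.3% near those of all genes. FTX, of the X inactivation region, was lower by 1.42 ± 0.26. Of 299 tested lincRNAs as annotated 25.1% were called lower and 8.7% higher, with a median of -0.44. Replication-dependent histone genes, at low levels in these libraries, had 6 of 36 higher and 1 lower. The shares were 16.7% and 2.78%, against 15.4% and 16.2% of all genes.

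**Figure D3:**
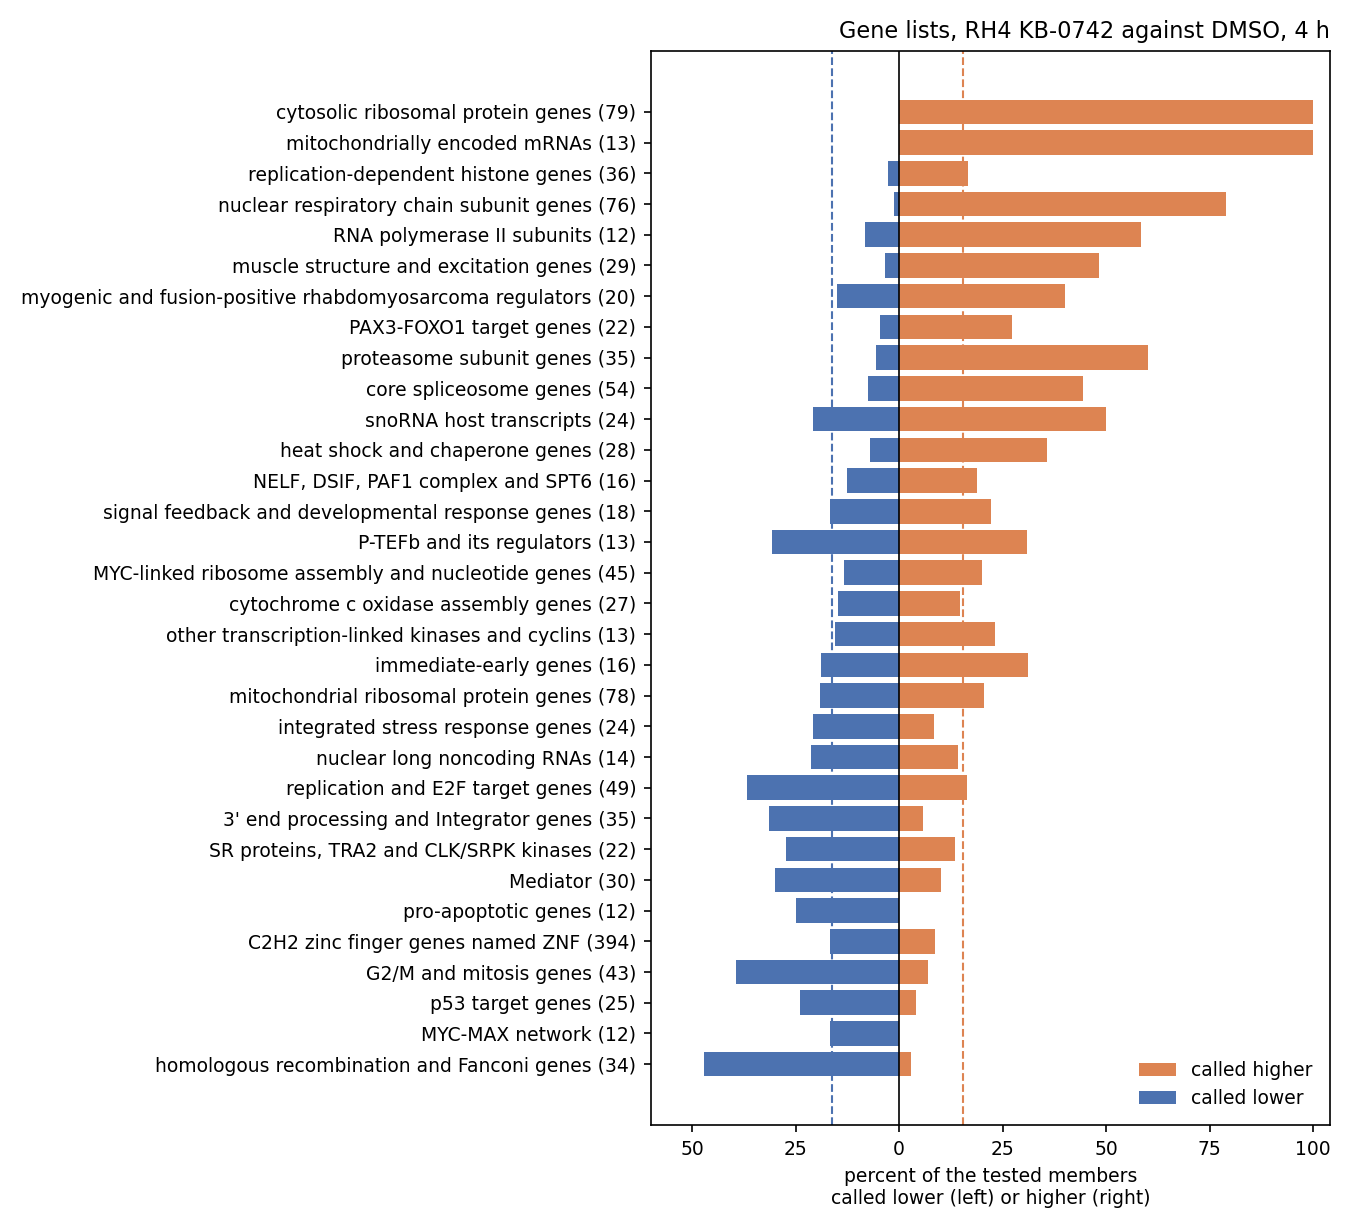
Percent of the tested members called higher (right) and lower (left) in each gene list with at least 12 tested members, with the number tested in parentheses and lists ordered by median change. Dashed lines mark 15.4% higher and 16.2% lower over all genes tested, and the bars run from 79 of 79 higher for ribosomal proteins at the top to 16 of 34 lower for recombination genes at the bottom.

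The direction of change followed the level of the transcript in vehicle-treated cells, read from the separate 8 h DMSO libraries so that no library served on both sides. Of 426 genes over 200 CPM there, 82.4% were called higher and 4.93% lower, with a median of 0.68 (with spike-in scaling -0.37). Of 1638 genes from 50 to 200 CPM, 38.7% were higher and 15.8% lower, and of 5098 genes from 10 to 50 CPM, 11.4% and 21.3%. Below 10 CPM 5.96% of 4896 genes were higher and 12.1% lower (median -0.27), where low counts also leave fewer genes callable. Short genes shared the pattern: 33.3% of 790 protein-coding genes spanning under 5 kb were higher and 11.8% lower, against 9.4% and 12.4% of 1946 genes over 100 kb. Their levels differed too, since the median log2 CPM was 4.73 in the shortest class and 3.53 in the longest, and the part of level in the pattern by span was not tested. The 10 most abundant genes took 27.1% ± 0.375 of gene counts with KB-0742 and 22.6% ± 1.30 with DMSO (SD, n = 4, two-sided exact permutation p = 0.0286, the smallest possible). The number of genes with a count was 16372 ± 411 with KB-0742 and 17889 ± 1071 with DMSO (exact permutation p = 0.0857).

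**Figure D4:**
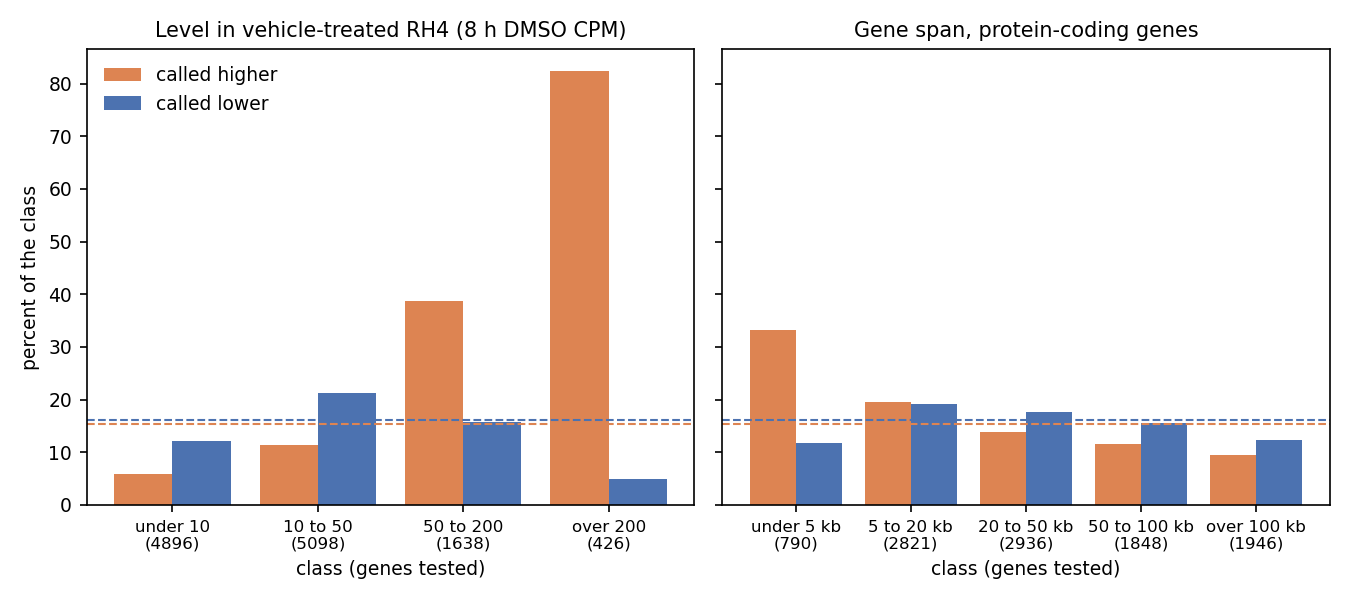
Percent of genes called higher and lower in classes of level in the 8 h DMSO libraries (left) and of gene span (right), with the number of genes tested in parentheses and dashed lines for all genes. The higher bar grows from 5.96% below 10 CPM to 82.4% over 200 CPM and shrinks from 33.3% under 5 kb to 9.4% over 100 kb.

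At 8 h the comparison with its own 4 DMSO libraries called 5482 genes (45.5%), 2714 higher (22.5%) and 2768 lower (23%). Of the 3814 genes called at 4 h, 2721 (71.3%) were called in the same direction at 8 h, 49.6% of the 8 h calls, and 50 in the opposite one. The difference between the effects, tested in the same fit, was called for 1024 genes (8.49%), 527 with a higher (4.37%) and 497 with a lower value at 8 h (4.12%). With spike-in scaling 305 differences were called (2.53%), 2 higher (0.0166%) and 303 lower (2.51%). CCNT1 went further, from 1.41 to 2.61 (difference 1.20 ± 0.34, edgeR adjusted p = 0.0209). CCNT2, which was not called at 4 h, changed by 1.59 ± 0.26 at 8 h (difference 1.47 ± 0.37, adjusted p = 0.00833). HEXIM1 stood at -1.38 ± 0.44 at 8 h, and its difference was not called (0.71, adjusted p = 0.574). CDK9 was called at 8 h (1.48 ± 0.31, with spike-in scaling -0.06), with a difference of 1.08 that was not (adjusted p = 0.134).

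HELLPAR (difference 1.52 ± 0.24) and UBOX5 (1.03 ± 0.23) gained between 4 h and 8 h, with spike-in scaling by 1.02 and 0.51. MYOD1 gained relative to the other genes (0.52 ± 0.16), a difference that was 0.03 with spike-in scaling. EGR1 was a 4 h response: its effect was -0.42 ± 0.54 at 8 h, where it was not called, and the difference of -3.17 was called (adjusted p = 0.00418). The innate immune factor gene IRF3 was not called at 4 h, with 22 ± 1.93 CPM against 16.3 ± 3.53, and fell at 8 h from 26.8 ± 2.37 to 2.98 ± 1.68 (difference -2.78 ± 0.43, adjusted p = 4.95e-05). YJU2, a splicing step factor, crossed over, at -1.50 ± 0.35 at 4 h and 0.95 ± 0.31 at 8 h, where spike-in scaling gave -0.62 (difference 2.44 ± 0.47). LUC7L3 and MED8 were less low at 8 h, with differences of 1.07 (adjusted p = 0.00157) and 1.41 (adjusted p = 0.0043). Mitochondrially encoded mRNAs differed in 9 of 13 cases, with medians of 0.77 at 4 h and 1.33 at 8 h that were -0.28 and -0.26 with spike-in scaling. ZNF genes differed in 39 of 394 cases, a share near the 8.49% of all genes. Their medians of -0.27 and 0.27 were -1.33 and -1.28 with spike-in scaling.

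KI-CDK9d-32 and KB-0742 were both applied for 4 h, at doses that the labels do not give, so the comparison is of these libraries and not of the compounds' strengths. It shares the KB-0742 libraries with the comparison to DMSO, so values are set side by side. The direct test called 3113 genes (25.8%), 1621 higher (13.4%) and 1492 lower (12.4%) under the degrader. With spike-in scaling the median difference of all genes moved from 0.03 to 0.72. CCNT1 had 9.36 ± 2.47 CPM under the degrader and 25.9 ± 5.52 under the inhibitor (-1.47 ± 0.24, adjusted p = 1.47e-05, with spike-in scaling -0.76), and DMSO stood at 9.70 ± 2.00. HEXIM1 had 9.09 ± 4.01 CPM against 2.25 ± 1.18 in the same order (1.98 ± 0.47, adjusted p = 0.00159, with spike-in scaling 2.5). MYC was lower with KI-CDK9d-32 relative to the other genes, 13.7 ± 6.01 CPM against 32.6 ± 6.18 (-1.25 ± 0.25, adjusted p = 0.000179, with spike-in scaling -0.5). MEPCE stood at 5.21 ± 1.81 and 4.25 ± 3.77 CPM, and the difference of 0.31 ± 0.46 was not called (adjusted p = 0.687).

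All 79 ribosomal protein genes and all 13 mitochondrially encoded mRNAs were called lower under KI-CDK9d-32 than under KB-0742 (medians -0.54 and -0.57), and none with spike-in scaling, where both medians were 0.13. LHFPL4, a tetraspan protein gene, was at 1.97 ± 0.545 CPM with DMSO, 2.83 ± 0.856 under the inhibitor and 47.7 ± 15.1 under the degrader, and the compounds differed by 4.04 ± 0.34 (adjusted p = 4.4e-12). TRIM66, a chromatin-binding repressor gene, was at 18.2 ± 5.62 CPM with DMSO, 3.33 ± 1.42 under the inhibitor and 40.1 ± 8.64 under the degrader, and the compounds differed by 3.57 ± 0.30. MPRIP-AS1 had 6.12 ± 0.387 CPM under the degrader and 57.9 ± 12.5 under the inhibitor (-3.23 ± 0.25). With spike-in scaling the direct test called 4278 genes (35.5%), 4128 higher (34.2%) and 150 lower (1.24%).

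In a joint fit of the 4 h DMSO and KB-0742 libraries of 3 lines (13538 genes), KB-0742 changed 3355 genes in RH4 (24.8%), 2879 in PSN1 (21.3%) and 3796 in MOLT4 (28%). Of the RH4 calls 1617 were called in the same direction in PSN1, 48.2% of the RH4 and 56.2% of the PSN1 calls, and 20 in the opposite one. In MOLT4 the counts were 1977 (58.9% and 52.1%) and 42. The 1734 genes higher and 1621 lower in RH4 made up 12.8% and 12% of all genes tested. Of these, 746 (43%) and 456 (28.1%) were called the same way in all 3 lines. Over all genes tested, PSN1 had 1397 calls higher and 1482 lower, and MOLT4 had 1726 and 2070. HEXIM1 fell in each line, by 2.07 ± 0.46 in RH4, 1.57 ± 0.41 in PSN1 and 2.84 ± 0.49 in MOLT4. CCNT1 rose in each, by 1.43 ± 0.24, 1.73 ± 0.22 and 1.39 ± 0.25.

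The effect differed between RH4 and PSN1 for 152 genes (1.12%), 60 with a higher (0.443%) and 92 with a lower value in RH4 (0.68%). Between RH4 and MOLT4 it differed for 353 (2.61%), 273 higher (2.02%) and 80 lower (0.591%). With spike-in scaling the counts were 10 (0.0739%), 5 in each direction (0.0369%), and 52 (0.384%), 44 higher (0.325%) and 8 lower (0.0591%). The count for PSN1 was 99 without RH4 DMSO replicate 2, 89 without RH4 DMSO replicate 3 and 95 without PSN1 DMSO replicate 4, and the 80 genes lower than in MOLT4 became 46 without MOLT4 DMSO replicate 1 or 3. CCNT2 was not called in RH4 (0.13 ± 0.30, with spike-in scaling -0.91) and rose in MOLT4 (2.07 ± 0.37), a difference of -1.94 ± 0.48 (adjusted p = 0.0153), while its difference from PSN1 was not called (-1.59 ± 0.43, adjusted p = 0.0561). MYC rose in MOLT4, from 159.7 ± 28 CPM (SD, n = 3) to 312 ± 43.4 (n = 4, 0.97 ± 0.15, with spike-in scaling -0.28), and the difference from RH4 was -0.80 ± 0.22 (adjusted p = 0.0398). MCL1 rose in RH4 (1.20 ± 0.28) and was not called in MOLT4 (-0.37 ± 0.33), a difference of 1.57 ± 0.43 (adjusted p = 0.0366). ASF1A fell by 3.16 ± 0.35 in RH4 and was not called in PSN1 (-0.43 ± 0.27), with a difference of -2.74 ± 0.46 (adjusted p = 0.00117). TWF1, an actin monomer-binding gene, fell in RH4 (-2.68 ± 0.46) and was called in neither other line (0.16 ± 0.31 in PSN1, with spike-in scaling -0.64, and -0.05 ± 0.40 in MOLT4), with differences of -2.84 ± 0.56 and -2.63 ± 0.63 that were both called.

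**Figure D5:**
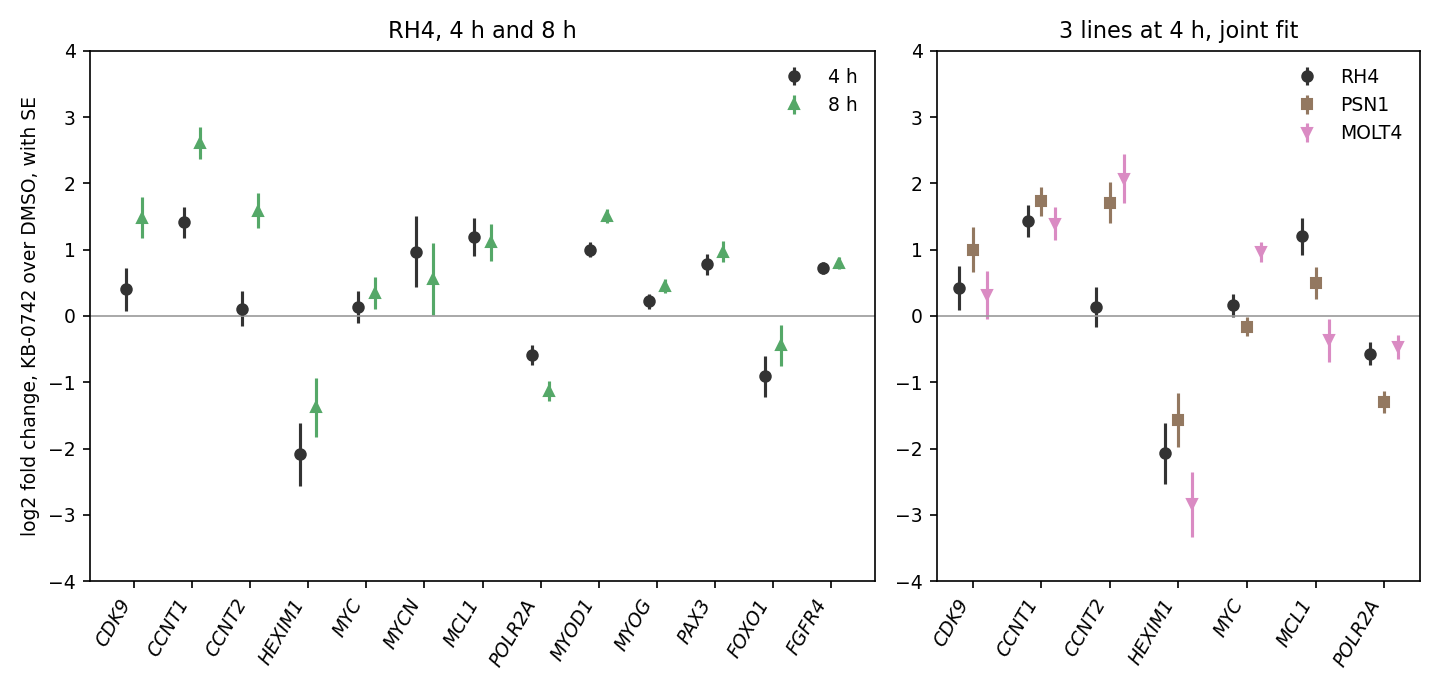
Log2 fold changes of KB-0742 over DMSO with standard errors (y axis), for 13 genes in RH4 at 4 h and 8 h (left) and for 7 genes at 4 h in RH4, PSN1 and MOLT4 in the joint fit (right). CCNT1 lies at 1.41 at 4 h and 2.61 at 8 h, HEXIM1 lies below 0 in every case, and CCNT2 lies near 0 in RH4 at 4 h and at 1.71 and 2.07 in PSN1 and MOLT4.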

How the data were processed

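RNA of 3 human cell lines was measured by sequencing after treatment with a CDK9 inhibitor (KB-0742), a CDK9 degrader (KI-CDK9d-32) or vehicle. Per the labels' protocols, every lysate received equal ERCC and SIRV spike-ins, and libraries were made by a reduced SMART-seq2 protocol with Nextera XT, which keeps no strand and has no molecular identifiers. Per the submitters' processing notes, Salmon and the hg38 build were used; the version of Salmon and the release of its annotation are not given in the sources used here. The authors deposited 1 table of expected counts per line, Salmon estimates rounded to whole numbers, and 1 of log2 values of TPM plus 1. Each has 62856 entries: 62710 genes, 92 ERCC, 7 SIRV and 47 pseudoautosomal Y entries. The last 3 kinds were left out of tests.

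Counts were fitted in R 4.3.3 with edgeR 4.0.16 (robust quasi-likelihood, TMM, filterByExpr with a minimum count of 10, Benjamini-Hochberg at 0.05), all 24 RH4 libraries in 1 fit, which shares 1 estimate of spread. The filter left 12058 genes and set aside 0.683% of gene counts. RH4, PSN1 and MOLT4 at 4 h were compared in 1 joint fit of 23 libraries. Spike-in scaling set library sizes by the summed ERCC and SIRV counts. The standard error is the change divided by the root of F. On simulated data with 11311 genes, of which 100 changed at each fold, 53% of 2-fold and 96% of 4-fold changes at 4 h were recovered with 6 false calls. Library quantities were compared by exact permutation over 70 arrangements. Counting intervals cover counting error only. Alternatives were DESeq2 1.42.0, minimum counts of 1 and 30, a replicate block, the 8 libraries alone, and each library left out.

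Named genes were 13 fixed genes, the 10 highest and 10 lowest calls (mean log2 CPM 3 or more, no overlap, no pseudogenes), up to 3 called members of each of 39 lists, and the 4 highest and 4 lowest of each difference. Some genes that met these rules are not reported here. Other genes named, such as single members of short counts, were chosen after their values were seen. The genes, lists and rules were chosen with earlier results of these data known, and list members came from general knowledge. Lists not described in the text are given by count in the closing section. Symbols were taken from the supplied reference tables, positions and spans from GENCODE release 29 (GRCh38), and promoters from RefSeq (GRCh38.p14), matched by symbol for 8930 genes.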

Additional observations from a re-analysis of the deposited data

Results flagged for a closer look

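Within groups of 4 libraries, 15 of 262 groups had 1 library far from the others, where chance gives about 1 in 20. With KB-0742 they were replicate 1 for HEXIM1 (0.489 CPM, low), LIME1 (0.978, high), CCNL2 (186, low) and TNNI1 (534, high), replicate 2 for HSPA8 (897, high) and RPL32 (3616, low), replicate 3 for PAX3 (68.3, low), and replicate 4 for RSKR (5.41, high) and ZNF658 (0.492, high). With DMSO they were replicate 1 for APCDD1L-DT (7.09, high), replicate 2 for RNPC3 (20.2, low), replicate 3 for FOXF1 (5.9, low) and MT-CO2 (11575, high), and replicate 4 for SPRY2 (13.4, low). DMSO replicate 4 also had the lowest depth, 1670111 gene counts.

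The effect differed between 8 h and 4 h, by the edgeR test of the difference, for CCNT1 (1.20), CCNT2 (1.47), MYOD1 (0.52, with spike-in scaling 0.03), HELLPAR (1.52) and UBOX5 (1.03). Among genes chosen for their difference, ABCA7 (-2.85), TANGO2 (-3.20) and IRF3 (-2.78) were lower and YJU2 (2.44), BMP8A (2.31) and RHPN2 (2.22) higher at 8 h. UPK3BL1 (-8.07) had all 4 KB-0742 libraries at 0 at 8 h, so its value depends on the prior count and is no bound. Its call was lost without any library but 4 h DMSO replicate 1, 4 h KB-0742 replicate 2 or 8 h DMSO replicate 2 (-8.12 to -7.72). SCUBE3-AS1 (2.23) kept its call only without 4 h DMSO replicate 4, 4 h KB-0742 replicate 3, 8 h DMSO replicate 4 or 8 h KB-0742 replicate 1, and stood at 1.84 to 2.31 where it lost it.

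The effect differed between RH4 and PSN1 for ASF1A (-2.74), MED31 (-2.03), APCDD1L (2.48), APCDD1L-DT (3.10), RCN3 (-4.55), TWF1 (-2.84) and FERMT3 (3.70), the last after a fall in PSN1 from 2.13 to 0.219 CPM. FXYD5 (-4.93) was at 0.952 and 0 CPM in RH4 and lost its call without RH4 DMSO replicate 2 (-4.45). PCDHGB7 (6.77) was at 0 in PSN1 with KB-0742 and SERPINB9 (4.33) at 0 in RH4 with DMSO, so these 3 values are no bounds. SERPINB9 lost its call without RH4 DMSO replicates 1, 2 or 3 or KB-0742 replicate 2 (3.94 to 4.32), and KLHL25 (4.34) without PSN1 KB-0742 replicates 2, 3 or 4 (3.99 to 4.08). PDP1 (-3.09) lost it without RH4 DMSO replicates 1 or 2, RH4 KB-0742 replicates 1, 2 or 3, PSN1 DMSO replicates 1, 3 or 4, or PSN1 KB-0742 replicate 1 (-3.07 to -2.67).

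Between RH4 and MOLT4 the effect differed for CCNT2 (-1.94), MYC (-0.80), MCL1 (1.57), LINC00339 (-2.23), LRIF1 (-4.59) and MKRN3 (-3.55). LRIF1 was near the floor in MOLT4, at 0.189 ± 0.164 CPM with DMSO (n = 3) and 1.97 ± 1.75 with KB-0742 (n = 4). Its effect was 2.99 ± 0.90 there and -1.61 ± 0.36 in RH4. In MOLT4 all KB-0742 libraries were at 0 for CDON (6.85), TBC1D24 (6.32), ST3GAL5 (5.66) and FITM2 (5.25), and in RH4 those for FXYD5 (-4.98) and PVRIG (-4.84) were, so these values depend on the prior count and are no bounds. PVRIG lost its call without RH4 DMSO replicates 1 or 3, any RH4 KB-0742 replicate, or MOLT4 DMSO replicates 1 or 3 (-4.85 to -4.33).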

How the results depend on the processing

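DESeq2 called 4011 genes at 4 h and kept 3808 of the 3814 calls in direction. Spike-in scaling kept 2019 and called 7519, 61 higher and 7458 lower; for the time difference it called 305 (2 higher, 303 lower), for KI-CDK9d-32 against KB-0742 4278 (4128 higher, 150 lower), for PSN1 10 (5 and 5) and for MOLT4 52 (44 and 8). Among named genes called at 4 h by either scaling it changed the sign of CCNT2 (-0.92), MYC (-0.87), MYOD1 (-0.07), MYOG (-0.83), PAX3 (-0.25), FGFR4 (-0.30), POLR2F (-0.12), POLR2E (-0.17), POLR2L (-0.20), CCNL2 (-0.06), FOXF1 (-0.04), IL4R (-0.13), MYL6B (-0.15), MYOZ2 (-0.26), BCL2L1 (-0.26), BIRC6 (-0.56), HSPB1 (-0.25), SRRM1 (-0.02), RPL32 (-0.04), RPL27A (-0.05), FAU (-0.07), MT-CO2 (-0.22), MT-CYB (-0.20), MT-ND6 (-0.22), NDUFB11 (-0.15), NDUFS7 (-0.18), NDUFA3 (-0.19), COX16 (-0.27), PSMB10 (-0.31), PSMC3 (-0.37) and TNNI1 (-0.31), and of FERMT3 (-0.28); it also did so, with no call by either, for CDK9 (-0.79), MYCN (-0.13), ABCA7 (-0.32), RHPN2 (-0.70), LHFPL4 (-0.58), PCDHGB7 (-0.27) and ST3GAL5 (-0.17); this scaling counts RNA per lysate. With a minimum count of 30 the PSN1 difference had 238 genes, 116 higher; the cause was not tested.

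Without 1 library at a time, calls at 4 h numbered 3297 to 3481 (1635 to 1716 higher, 1655 to 1775 lower), the time difference 777 to 1017 (403 to 525, 372 to 495), the compound difference 2637 to 2758 (1375 to 1449, 1247 to 1321), the PSN1 difference 89 to 151 (31 to 62, 58 to 93) and the MOLT4 difference 253 to 378 (207 to 295, 46 to 84), with fewer libraries in each. The difference in spike-in share was 1.87 to 4.97 percentage points. With the replicate number as a block 4127 genes were called at 4 h and 3781 of the calls were kept. Deviations of same-numbered libraries at 4 h correlated at 0.12, 0.0547, 0.0622 and 0.0528. Those of differently numbered DMSO and KB-0742 libraries correlated at -0.108 to 0.0747. The main fit left the replicate number out, and whether same-numbered libraries shared a batch was not tested. At these depths 53% of simulated 2-fold and 96% of 4-fold changes were recovered, and recovery was not split by level. The simulation changed 100 genes at each fold, evenly up and down, and gave every gene the same spread. In the data 31.6% of genes were called, so recovery there can differ.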

Other observations

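Some lists were not described above. Of 8 tested NF-kB factors and feedback targets 1 rose and 1 fell, 12.5% each way against 15.4% and 16.2% of all genes. NFKBIZ, a nuclear regulator of NF-kB target genes, went from 14 ± 2.50 to 45.7 ± 22.2 CPM (SD, n = 4, log2 change 1.69 ± 0.28, edgeR adjusted p = 1.83e-05, with spike-in scaling 0.54), and RELA, the p65 subunit gene, from 18.5 ± 5.57 to 8.16 ± 2.74 (-1.19 ± 0.30, edgeR adjusted p = 0.00186). None of 7 tested small noncoding RNA genes was called by edgeR or DESeq2, with 2 higher and 0 lower at an unadjusted p below 0.05. The 1 tested T-lineage marker and the 2 tested epithelial markers had 0 calls by either tool and 0 at that unadjusted p. In the histone list H2AC6 rose from 1.68 ± 0.884 to 5.50 ± 2.36 CPM (1.75 ± 0.51, with spike-in scaling 0.60), with overlapping groups. Histone genes have near-identical copies that can share reads.

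In the ZNF list ZNF596 fell from 5.11 ± 2.00 to 0.721 ± 0.849 CPM (-2.78 ± 0.63), and ZNF658 had 54 counts over the DMSO libraries and 1 with KB-0742, a ratio of 0.0270 per library size with an exact 95% counting interval of 0.000672 to 0.157, where the interval covers counting error only. Of 359 tested pseudogenes 15.9% were called higher and 7.8% lower, with a median of 0.40 (with spike-in scaling -0.64).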
